A study of Homo sapiens with 20 samples.

Results

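The collagens and extracellular matrix genes described here are 35 genes chosen by name, with earlier results of these data known. The set comprises 15 collagen chains, 13 other matrix proteins and 7 enzymes and chaperones that modify or fold collagen. They are 35 of 19775 genes with a probe set of 1 gene symbol on the arrays and carry 112 probe sets, of which 79 lay above the signal filter. By this filter 33 of the 35 genes were tested, among 14478 genes in all.

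Messenger RNA was measured in U2OS, an established human osteosarcoma line derived from a malignant tumour of bone, on 20 Affymetrix 3' expression arrays in 5 conditions. Control cells were compared with cells held below 0.1% oxygen for 3 hr (hypoxia), given 2.5 ug/ml tunicamycin for 3 hr, or given 100 ug/ml emetine for 3 hr, and with cells carrying a hairpin against UPF1 (written shRent1 after the gene's other name, Rent1). In each condition 1 array was taken before the drug DRB and 1 array each at 1.5, 3 and 4.5 hr after 100 ug/ml DRB. No combination of condition and time has a second array, and the labels do not mention separate cultures. A condition, its culture and its array batch cannot be told apart. Tunicamycin blocks N-linked glycosylation and loads the endoplasmic reticulum with misfolded protein, emetine stops translation elongation, UPF1 is the central helicase of nonsense-mediated mRNA decay, and DRB stops elongation by RNA polymerase II. For the depleted cells no control hairpin is named, and whether the stresses went on during DRB is not stated.

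Collagen chains are made in the endoplasmic reticulum, where prolyl 4-hydroxylases (P4HA1, P4HA2) and lysyl hydroxylases (PLOD1, PLOD2) modify them and the chaperone HSP47, encoded by SERPINH1, binds the folded triple helix. Outside the cell, lysyl oxidases (LOX, LOXL2) crosslink collagen and elastin, fibrillar collagens form the fibres of bone, and collagen IV, laminins and nidogen form basement membranes. The genes for the collagen hydroxylases and lysyl oxidase are textbook targets of the hypoxia-inducible factors, which bind a core sequence that includes ACGTG, and osteoblast-lineage cells are major producers of matrix.

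The promoters of the 3 collagen-modifying genes that were highest in hypoxia are shown here. They were chosen by their hypoxia values, so their motif counts are no test of the motif. Each line is the 250 bases before the annotated start, 5' to 3' on the gene's strand, from RefSeq sequences of build GRCh38.p14, with every ACGTG on either strand (ACGTG or its reverse complement CACGT) in capitals. The lines lie at chr5:122078260-122078509 (LOX, minus strand), chr3:146161185-146161434 (PLOD2, minus strand) and chr10:73096867-73097116 (P4HA1, minus strand).
LOX: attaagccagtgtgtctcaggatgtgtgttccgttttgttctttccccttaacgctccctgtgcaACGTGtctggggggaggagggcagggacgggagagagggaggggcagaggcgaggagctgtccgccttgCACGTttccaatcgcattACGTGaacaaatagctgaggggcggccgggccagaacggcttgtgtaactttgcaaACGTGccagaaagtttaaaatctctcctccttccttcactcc
PLOD2: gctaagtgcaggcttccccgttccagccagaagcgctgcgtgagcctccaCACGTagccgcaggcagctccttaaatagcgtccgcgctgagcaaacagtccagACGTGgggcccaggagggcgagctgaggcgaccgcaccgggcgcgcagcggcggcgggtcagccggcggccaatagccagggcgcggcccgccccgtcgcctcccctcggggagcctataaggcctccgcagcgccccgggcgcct
P4HA1: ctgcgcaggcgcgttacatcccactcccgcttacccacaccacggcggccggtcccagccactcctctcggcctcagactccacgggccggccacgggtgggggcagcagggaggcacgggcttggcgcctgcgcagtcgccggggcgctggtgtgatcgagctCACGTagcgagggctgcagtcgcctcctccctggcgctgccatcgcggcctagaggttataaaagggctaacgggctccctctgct
The LOX stretch holds 4 of these motifs, that of PLOD2 2 and that of P4HA1 1, while 18.5% of all 35116 promoters in the table hold at least 1 and 7.52% hold 2 or more in the same 250 bases. Promoters were matched for 27 of the 35 genes, and 6 of these hold ACGTG: the 3 shown, COL5A1, COL12A1 and FBN2. Before DRB the last 3 were not raised in hypoxia. COL5A1, COL12A1 and FBN2 read 8.12, 11.02 and 9.83 log2 there against 8.18, 11.05 and 9.85 in control. In FBN2 both matches are the palindrome CACGTG read on each strand. P4HA2, PLOD1, SERPINH1 and COL13A1 hold no ACGTG in this window. GCGTG, the other form of the core, searched on both strands in the same way, is in 32.2% of all promoters and in 7 of the 27, with 2 in PLOD1, 1 each in PLOD2 and COL13A1, and 0 in LOX, P4HA1, P4HA2 and SERPINH1. A match is only a match of letters. The chains of collagen IV are shown for another reason: COL4A1 and COL4A2 lie head to head, and the 126 bases between their starts, chr13:110307158-110307283 (written on the plus strand, which is that of COL4A2), serve both as upstream sequence.
COL4A1-COL4A2: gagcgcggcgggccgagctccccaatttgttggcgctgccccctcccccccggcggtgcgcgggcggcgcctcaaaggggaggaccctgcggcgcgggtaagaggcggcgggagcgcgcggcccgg
This stretch is 80.2% G or C.

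Signals are given on the log2 scale of RMA values, which were scaled between arrays, so each level is relative to the bulk of the transcripts on that array. The median signal per array lay between 37.3 and 40.4 on the linear scale, and precision is limited by the 20 arrays. UPF1 was at 29.1% of control in shRent1 cells over the 4 times, with a mean log2 difference of -1.78 ± 0.48 (SD, 4 times). Before DRB its log2 difference was smaller, -1.06. The stress markers ADM and VEGFA differed from control by 3.56 and 1.601 in hypoxia, and HSPA5 and DDIT3 by 1.90 and 3.96 in tunicamycin (mean log2 differences over 4 times). Most were not particular to 1 stress. ADM and DDIT3 differed by 4.44 and 4.60 in emetine, and VEGFA by 1.09, 0.91 and 0.82 in tunicamycin, emetine and shRent1. HSPA5 differed by 0.08, 0.19 and 0.02 in hypoxia, emetine and shRent1. Of the osteoblast and osteosarcoma markers 9 of 10 with a probe set lay above the filter, among them RUNX2, ALPL, SPP1, CDH11 and VIM. Of these markers SP7, PTH1R and IBSP were close to the filter (mean log2 4.90, 4.86 and 4.78), and DLX5 was under it (3.86). Markers of other cells were above the filter for 8 of 11 epithelial, 5 of 8 endothelial and 3 of 5 blood cell genes. The epithelial KRT18 (12.94), KRT8 (11.66) and EPCAM (8.11) were far above it, and PTPRC, CDH5, KDR and CDH1 were under it. The summed signal of the epithelial list ran from 12169 to 13397 in control, 9959 to 11825 in hypoxia, 11318 to 13447 in tunicamycin, 9973 to 10741 in emetine and 11464 to 12160 in shRent1. The ACTB probe sets at the 3' and 5' ends of the transcript, a check of RNA length after labelling, differed by 0.55 ± 0.10 log2 in control and 0.54 ± 0.11 in tunicamycin, but by 2.04 ± 0.13 in hypoxia, 2.04 ± 0.19 in emetine and 1.24 ± 0.06 in shRent1 (mean ± SD, 4 arrays). This quantity therefore moved with 3 of the 4 comparisons below, and its part in their results was not tested. In RNA from whole cultures, fewer cells of a kind and less RNA per cell cannot be told apart.

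Most matrix genes gave signals far from the floor of the arrays. The mean of 29 genes lay more than 1 log2 above the filter of 4.70, among them COL1A1 (12.63), the main collagen chain of bone, FN1 (11.96), which encodes fibronectin, and SPARC (12.01), which encodes osteonectin. Levels of different probe sets are not compared here. The genes VCAN and COL1A2 stayed under the filter and were not tested. VCAN, the large proteoglycan versican, had a mean of 3.97 and no array above the filter on its brightest probe set, and COL1A2, the partner chain of COL1A1 in type I collagen, had a mean of 4.41 with 2 of 20 arrays above it. The genes LUM (4.87), LAMA4 (4.95), BGN (5.19) and COL8A1 (5.52) lay within 1 log2 above the filter, so the sizes of their changes are uncertain. COL1A2 ran from 4.09 to 4.87 and VCAN from 3.54 to 4.65 over the 20 arrays. COL11A1 and COL3A1 had means of 5.75 and 5.97, between 1 and 2 log2 above the filter.

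Before DRB, hypoxia raised a group of collagen-modifying enzymes and lowered the collagen chaperone. Relative to control, 4 of 33 genes were higher (LOX, P4HA1, PLOD2 and COL13A1), against 3.21% of all genes tested, and 3 were lower (SERPINH1, COL4A1 and TNC), against 4.44% (limma, adjusted p below 0.05). Here and below, a tested level before DRB is fitted. It is the value at 0 hr of a straight line through the differences from control at the 4 times. It can differ from the gap between the arrays at 0 hr. Over all 33 genes the median log2 difference was -0.04, against -0.02 over all genes. Averaged over the 4 times, a setting of the same model that uses all arrays, 12 genes were higher (15.9% of all genes) and 5 lower (14.4%). All 4 hypoxia arrays lay above all 4 control arrays for 5 genes (LOX, P4HA1, PLOD2, COL1A1 and COL3A1; 5.10% of all genes) and below them for 2 (COL4A1 and TNC; 7.30%). The calls before DRB rest on the arrays at 0 hr: without the control array or without the hypoxia array of that time, 0 genes were called, and the average over 4 times then gave 11 genes in either case.

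Tunicamycin gave no call before DRB and lower values later. No gene of the 33 was called higher or lower before DRB, where 1.97% and 0.926% of all genes were. Of the 33, 4 had an unadjusted p below 0.05, against 2490 of all 14478 genes. The lowest estimate was that of COL4A1, -0.61 ± 0.15 (SE; adjusted p 0.059). Averaged over the 4 times, 0 genes were higher (16.2% of all genes) and 15 lower (15.5%), with COL4A1, LAMC1 and NID1 at the lower end. For 7 genes all 4 tunicamycin arrays lay below all 4 control arrays (5.90% of all genes), and for 0 genes above them (5.80%). Those 7 are COL4A1, LAMC1, NID1, P4HA2, FBN1, SPARC and COL8A1. Leaving out the control array at 3 hr gave an average-over-times count of 10, as did leaving out the tunicamycin array at 1.5 hr.

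Emetine gave the largest number of lower genes of the 4 comparisons, and the share of all genes called was also the largest. Before DRB, 14 of 33 genes were lower, against 19.8% of all genes, and 2 were higher (NID1 and COL12A1), against 18.9%. The members' median was -0.12 and that of all genes -0.08. Averaged over the 4 times, 21 genes were lower (38.1% of all genes) and 3 higher (30.5%). All emetine arrays lay below all control arrays for 15 genes (22.6% of all genes) and above them for NID1 and COL3A1 (22.4%). Without the control array at 0 hr 8 genes were called, and without the emetine array at 0 hr 6 were.

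In UPF1-depleted cells the lower genes were fibrillar collagen V, fibronectin and osteonectin. Before DRB, 4 genes were lower (FN1, COL5A1, COL5A2 and SPARC), against 3.99% of all genes, and 2 higher (LUM and COL13A1), against 9.68%. Over the 33 genes the median was -0.13, against 0.01 over all genes. Averaged over the 4 times, 12 genes were lower (17.4% of all genes) and 5 higher (23.4%). All shRent1 arrays lay below all control arrays for 10 genes (6.87% of all genes) and above them for THBS1 and COL13A1 (11.04%). Without the control or the shRent1 array at 0 hr, no gene was called before DRB.

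**Figure D1:**
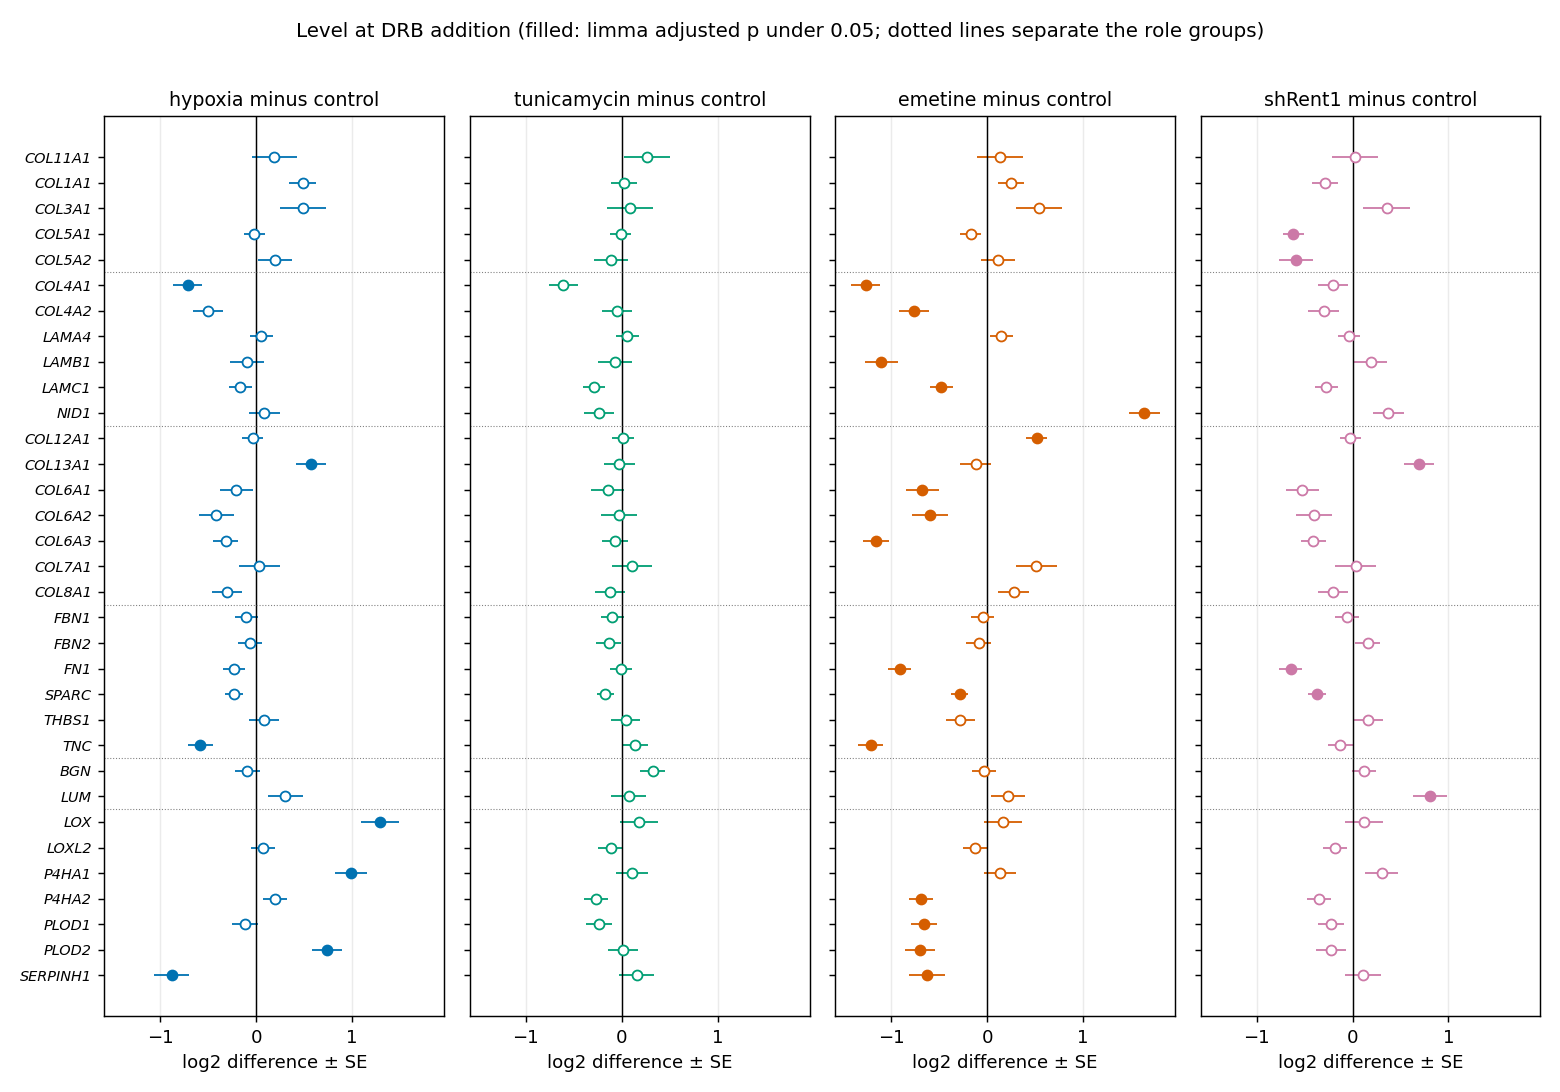
Fitted log2 difference from control before DRB with its standard error (horizontal axis) for the 33 tested genes (rows, grouped by role) in hypoxia, tunicamycin, emetine and shRent1, with filled points for adjusted p below 0.05. LOX, P4HA1 and PLOD2 stand to the right in hypoxia, tunicamycin has no filled point, and emetine has 14 filled points left of 0 and 2, NID1 and COL12A1, to its right.

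Of the enzymes, LOX, the lysyl oxidase that starts collagen crosslinking, read 8.25, 8.64, 8.82 and 8.74 in control, in order of time after DRB, and 9.76, 9.56, 9.99 and 9.99 in hypoxia. The ranges of the other 3 conditions, 8.22 to 8.79 together, stayed under every hypoxia array. The level before DRB differed from control by 1.29 ± 0.20 in hypoxia (SE; adjusted p 0.0028) and by 0.19, 0.17 and 0.12 in tunicamycin, emetine and shRent1, none of which passed. Of its other probe sets 1 was lower in hypoxia (given with the probe sets).

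P4HA1, the catalytic chain of the main collagen prolyl 4-hydroxylase, read 9.56, 9.74, 10.31 and 10.00 in control and 10.62, 10.81, 11.27 and 11.36 in hypoxia. Every hypoxia array was above every array of the other conditions. Its level difference was 0.99 ± 0.17 (adjusted p 0.00536). In tunicamycin the gene read 9.84, 9.50, 9.41 and 9.48, above control at the first time and below it at the later ones.

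PLOD2, the lysyl hydroxylase that modifies the telopeptides of collagen, went opposite ways in hypoxia and emetine. Control arrays read 10.97, 11.09, 11.24 and 11.15, hypoxia arrays 11.89, 11.63, 12.03 and 12.14, and emetine arrays 10.20, 10.48, 10.44 and 10.31. Neither range overlapped that of control. The level differences were 0.74 ± 0.16 in hypoxia (adjusted p 0.0152) and -0.70 ± 0.16 in emetine (adjusted p 0.00366).

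The second prolyl hydroxylase chain, P4HA2, read 11.59, 11.67, 11.93 and 12.12 in hypoxia against 11.38, 11.30, 11.65 and 11.47 in control, with overlapping ranges. Its level difference in hypoxia, 0.19 ± 0.12, did not pass (adjusted p 0.398), and the average over times, 0.38 ± 0.07, did (adjusted p 0.00252). In emetine the gene read 10.62, 10.72, 10.74 and 10.63, below every control array, a level difference of -0.69 ± 0.12 (adjusted p 0.000907). PLOD1, another lysyl hydroxylase, was at 9.12, 9.12, 9.17 and 9.09 in emetine against 9.88, 9.55, 10.10 and 9.80 in control, a difference of -0.66 ± 0.13 (adjusted p 0.00205), and did not pass in hypoxia (-0.12 ± 0.13). LOXL2, a relative of LOX, passed in no comparison with control before DRB, with estimates from -0.18 to 0.07.

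SERPINH1, the collagen chaperone, was lower in hypoxia. It read 9.54, 9.60, 9.94 and 9.75 in control but 8.73, 8.92, 9.65 and 9.82 in hypoxia, low before and early after DRB and inside the control range at the last 2 times. The level difference was -0.88 ± 0.18 in hypoxia (adjusted p 0.0143). Emetine arrays read 9.09, 8.73, 9.62 and 9.40, below every control array at all times but 3 hr. The fitted level difference was -0.63 ± 0.18 (adjusted p 0.0168). This emetine call was lost without the control array at 0 hr or the emetine array at 1.5 hr. A single probe set reports this gene.

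**Figure D2:**
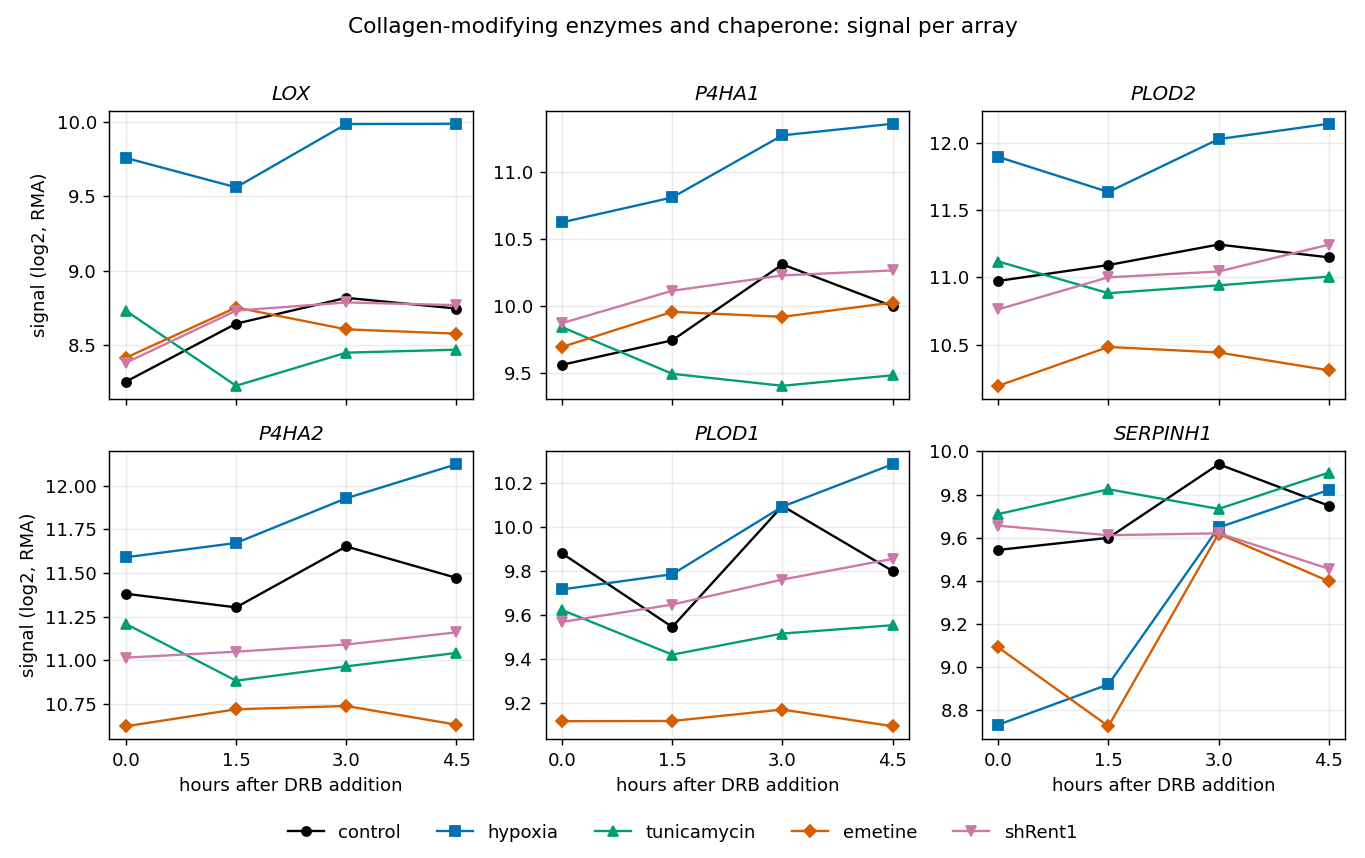
Log2 signal (vertical axis) against hours after DRB (horizontal axis) for 6 genes of collagen modification, 1 point per array and 1 line per condition. LOX, P4HA1 and PLOD2 in hypoxia lie above all other arrays, PLOD2, P4HA2 and PLOD1 in emetine lie lowest, and SERPINH1 in hypoxia climbs from 8.73 to 9.82.

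Set directly against the other stresses in the same model, hypoxia was higher for all 3 of LOX, P4HA1 and PLOD2. The level differences of LOX were 1.10 ± 0.20 against tunicamycin, 1.12 ± 0.20 against emetine and 1.17 ± 0.20 against shRent1 (adjusted p 0.00348, 0.000894 and 0.00128). P4HA1 differed by 0.88, 0.86 and 0.69 in the same order, PLOD2 by 0.73, 1.44 and 0.96, and P4HA2 by 0.46, 0.88 and 0.54, and each of these passed. The chaperone SERPINH1 was lower in hypoxia than in tunicamycin, by -1.04 ± 0.18 (adjusted p 0.00336), and than in shRent1, by -0.99 ± 0.18 (adjusted p 0.00235). Over all genes, 6.57% were higher and 6.71% lower in hypoxia than in tunicamycin, 15.1% and 17.9% than in emetine, and 7.89% and 16.4% than in shRent1. These 3 differences share the hypoxia arrays.

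Among basement membrane genes, COL4A1, the alpha 1 chain of collagen IV, was low in 3 stresses. It read 11.50, 11.39, 11.64 and 11.43 in control and 10.86, 10.71, 11.07 and 11.13 in hypoxia. Emetine arrays read 10.12, 10.31, 10.19 and 10.04, and tunicamycin arrays 11.04, 10.44, 10.35 and 10.30. None of these 3 ranges overlapped that of control, nor did that of shRent1 (11.13 to 11.33). The level difference was -0.72 ± 0.15 in hypoxia (adjusted p 0.0164) and -1.27 ± 0.15 in emetine (adjusted p 4.78e-05), and the average difference in tunicamycin was -0.96 ± 0.09 (adjusted p 6.97e-06).

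COL4A2, whose start lies opposite that of COL4A1 (the bases printed above), read 12.77, 12.48, 13.06 and 12.67 in control and 12.19, 12.40, 12.59 and 12.75 in hypoxia, overlapping. The level difference in hypoxia, -0.50 ± 0.16, missed the threshold (adjusted p 0.0728). Emetine arrays, 11.88, 12.002, 11.89 and 11.85, were below every control array, with a difference of -0.77 ± 0.16 (adjusted p 0.0021).

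NID1, the linker protein nidogen 1, moved the other way in emetine. Control arrays read 8.85, 9.04, 9.35 and 9.41 and emetine arrays 10.55, 10.27, 10.34 and 10.14, without overlap. The level difference, 1.64 ± 0.16 (adjusted p 7.98e-06), was the largest upward one of these genes in any comparison with control before DRB. Its size depended on the probe set: the mean difference over times in emetine ran from 0.105 (1561082_at) to 1.17 (202007_at, which represents the gene). In tunicamycin NID1 read 8.84, 8.34, 8.38 and 8.68, all below control, and in hypoxia 8.92, 9.38, 9.65 and 10.08.

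The laminin chains LAMB1 and LAMC1 were lower in emetine. LAMB1 read 9.21, 9.07, 8.97 and 8.80 in control and 7.98, 8.38, 8.33 and 8.34 in emetine, a level difference of -1.10 ± 0.18 (adjusted p 0.000359). LAMC1, with 10.48, 10.47, 10.85 and 10.62 in control, was at 9.95, 10.13, 10.05 and 10.09 in emetine (-0.48 ± 0.12, adjusted p 0.0065). It read 10.19, 10.04, 9.94 and 9.73 in tunicamycin, an average difference of -0.63 ± 0.07 (adjusted p 2.42e-05). LAMA4, close to the filter, passed in none of these.

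Of the 5 tested fibrillar collagens, 0 passed before DRB in hypoxia, tunicamycin or emetine, and 2, the chains of type V collagen, were lower in shRent1. COL5A1 read 8.18, 8.26, 8.63 and 8.64 in control and 7.55, 7.71, 7.87 and 8.03 in shRent1, every array lower, with a level difference of -0.62 ± 0.11 (adjusted p 0.00351). COL5A2, its partner in type V collagen, read 7.69, 7.97, 8.22 and 7.98 in control and 7.09, 7.48, 7.35 and 7.42 in shRent1 (-0.59 ± 0.18, adjusted p 0.043). This call was lost without 6 of the 8 arrays in turn. Set directly against shRent1, hypoxia was higher for COL5A1 (0.60 ± 0.11, adjusted p 0.00225) and COL5A2 (0.79 ± 0.18, adjusted p 0.00688).

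COL1A1, the main collagen chain of bone, read 12.52, 12.74, 12.62 and 12.64 in control and 13.00, 13.14, 13.20 and 12.95 in hypoxia, all higher. The level difference, 0.48 ± 0.14, fell just short (adjusted p 0.0503), and the average over times, 0.44 ± 0.08, passed (adjusted p 0.00165). These values are of the representing probe set. Its other probe sets differed in sign in hypoxia, from -0.15 (217430_x_at) to 0.47 (202311_s_at) on average. With overlap, 202310_s_at read 10.12, 10.40, 10.51 and 10.61 in hypoxia against 10.26, 9.96, 10.51 and 10.15 in control. COL3A1, a low gene, read 5.34, 5.80, 5.93 and 5.56 in control, 6.18, 6.02, 6.70 and 6.86 in hypoxia, and 6.04, 6.21, 6.02 and 6.15 in emetine. Both stress ranges lay above control. Its average differences were 0.78 ± 0.14 in hypoxia (adjusted p 0.00165), 0.45 ± 0.14 in emetine (adjusted p 0.015) and 0.53 ± 0.14 in shRent1 (adjusted p 0.0118). COL11A1, a minor fibril chain, passed in 1 difference of level from control, the average in hypoxia (0.54 ± 0.14, adjusted p 0.0119).

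Collagen VI, which forms beaded microfilaments around cells, was lower in emetine in all 3 chains. COL6A3 read 12.59, 12.57, 12.81 and 12.66 in control and 11.33, 11.63, 11.53 and 11.51 in emetine, a level difference of -1.16 ± 0.13 (adjusted p 2.81e-05). COL6A1 and COL6A2 differed by -0.68 ± 0.17 (adjusted p 0.00769) and -0.60 ± 0.19 (adjusted p 0.0223). No emetine array of any chain reached the control range. In shRent1 their level estimates of -0.53, -0.40 and -0.41 for COL6A1, COL6A2 and COL6A3 did not pass, while their averages of -0.59, -0.37 and -0.56 did.

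COL13A1, a transmembrane collagen, was higher in hypoxia and in shRent1. Control arrays read 9.06, 8.92, 9.51 and 9.29, hypoxia arrays 9.77, 9.48, 9.93 and 10.23, and shRent1 arrays 9.74, 9.82, 10.03 and 10.23. The shRent1 range lay above that of control, and the hypoxia range overlapped it. Level differences were 0.57 ± 0.16 in hypoxia (adjusted p 0.048) and 0.70 ± 0.16 in shRent1 (adjusted p 0.013). The hypoxia call was lost in 5 of 9 other settings and without 4 of the 8 arrays in turn. The shRent1 call was kept in 7 of 9 other settings and without 6 of the 8 arrays, and was lost without either array at 0 hr. On average its probe sets were all higher, by 0.16 to 0.758 in shRent1 and by 0.223 to 0.657 in hypoxia. The highest in both was 211343_s_at, which represents the gene. COL12A1, a collagen that binds the surface of fibrils, read 11.05, 11.26, 11.59 and 11.35 in control and 11.58, 11.67, 11.64 and 11.48 in emetine (0.52 ± 0.11, adjusted p 0.00288), with overlapping ranges. COL7A1 and COL8A1 passed in no comparison with control before DRB.

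The glycoproteins FN1 and TNC were lowest in emetine. FN1, fibronectin, read 12.18, 12.24, 12.65 and 12.40 in control, 11.25, 11.36, 11.37 and 11.32 in emetine and 11.51, 11.74, 11.80 and 11.87 in shRent1, and both latter ranges lay below control. Level differences were -0.91 ± 0.12 in emetine (adjusted p 6.49e-05) and -0.65 ± 0.12 in shRent1 (adjusted p 0.00367).

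TNC, the de-adhesive protein tenascin C, read 10.74, 10.61, 10.95 and 10.80 in control, 10.20, 10.07, 10.42 and 10.48 in hypoxia and 9.49, 9.48, 9.57 and 9.56 in emetine. Both stress ranges were below control. Level differences were -0.58 ± 0.13 (adjusted p 0.0193) and -1.22 ± 0.13 (adjusted p 1.67e-05). The hypoxia call was lost in 3 of 10 other settings and without 3 of the 8 arrays in turn. With the median of its 3 probe sets the hypoxia estimate was -0.07 (adjusted p 0.962). That median is the second probe set, 216005_at, on every array. This probe set differed by 0.22 on average and fell steeply after DRB (given below). SPARC, osteonectin, had level differences of -0.29 ± 0.09 in emetine (adjusted p 0.0261) and -0.37 ± 0.09 in shRent1 (adjusted p 0.0189). The emetine call was lost in 2 of 10 other settings and without 4 of the 8 arrays in turn, and the shRent1 call in 3 of 10 settings and without 2 of the 8 arrays. THBS1, FBN1 and FBN2 passed in no comparison with control before DRB.

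Of the small proteoglycans, LUM (lumican) read 4.08, 4.91, 4.86 and 5.13 in control and 4.99, 5.52, 5.72 and 5.93 in shRent1, a level difference of 0.81 ± 0.18 (adjusted p 0.0113), from control signals about the filter and with overlapping ranges. BGN (biglycan), also low, passed in no comparison with control before DRB.

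**Figure D3:**
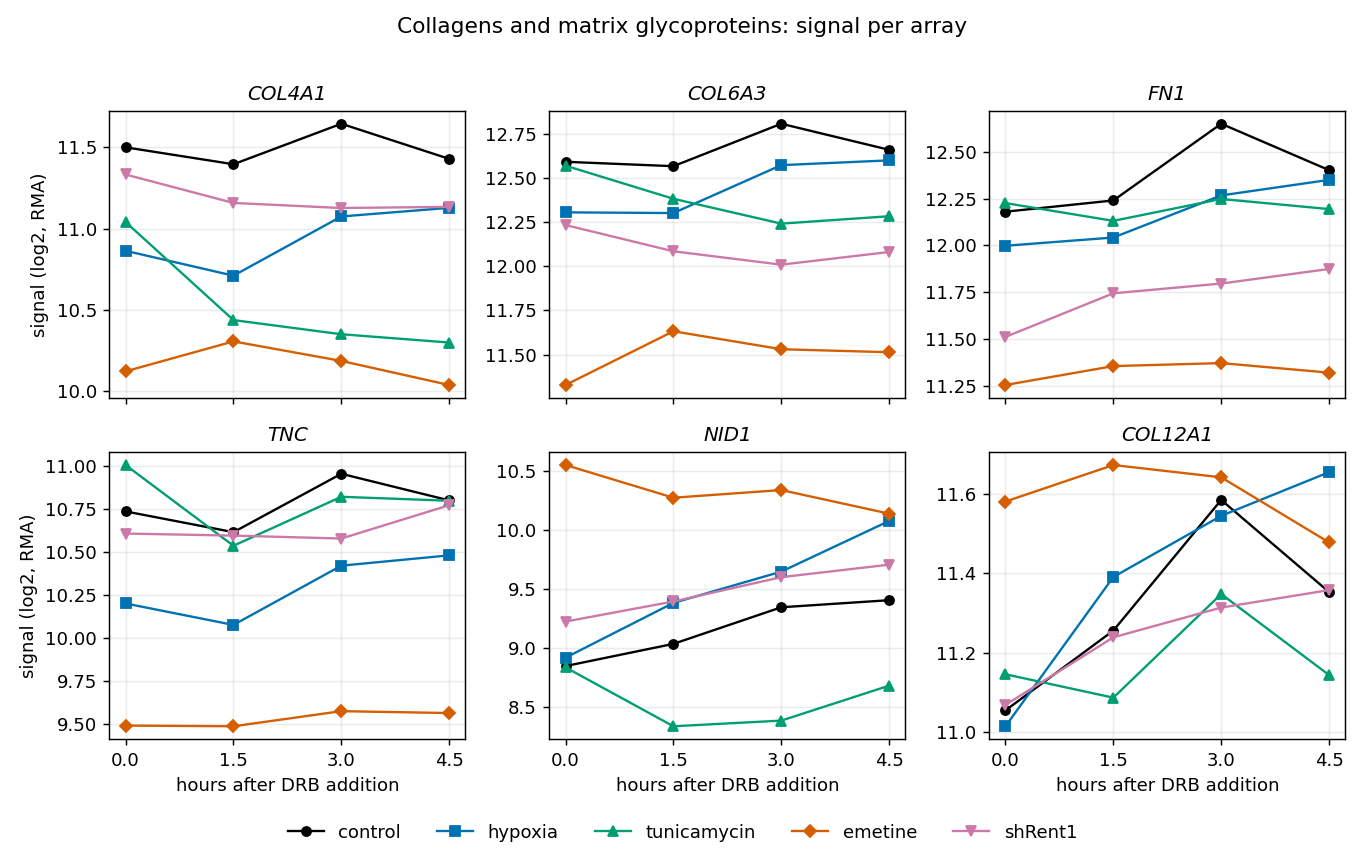
Log2 signal (vertical axis) against hours after DRB (horizontal axis) for COL4A1, COL6A3, FN1, TNC, NID1 and COL12A1, 1 point per array and 1 line per condition. The emetine line lies lowest for the first 4 genes and highest for NID1, where it starts at 10.55.

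In emetine 5 of these calls, those of NID1, COL4A1, COL6A3, FN1 and TNC, held in every other setting tried and without each of the 8 arrays in turn. LOX, P4HA1, PLOD2 and SERPINH1 in hypoxia kept their call without 6 of the 8 arrays in turn, the exceptions being both arrays at 0 hr. LOX, P4HA1 and PLOD2 are each represented by a probe set ending in _s_at, so without such probe sets their hypoxia calls were not made. FN1, on a probe set ending in _x_at, was likewise not tested in that setting, so its emetine call was not tried there. The COL4A1 call in hypoxia was also lost without the hypoxia array at 1.5 hr, and the COL6A2 call in emetine without 4 of the 8 arrays in turn.

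Within control, the fitted slope after DRB was above 0 for 32 of 33 genes, with a median of 0.06 log2 per hr, against 61.3% of all genes and a median of 0.03. With arrays centred on ribosomal protein genes 29 were above 0. Slopes passed upward for 8 genes (LAMA4, FBN1, FBN2, COL5A1, BGN, P4HA1, NID1 and LUM), against 14.2% of all genes, and for 0 downward, against 17.5%. The steepest was LUM at 0.21 ± 0.05 (adjusted p 0.0079), a gene near the filter. Without the control array at 0 hr 0 genes passed, and 2 passed with ribosomal centring. The control array at 3 hr was the highest of the 4 control arrays for 27 of 33 genes, a share of 25.4% over all genes, so the control course is not a straight line for most of them.

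Within each stress the courses were described in the same way. The median slope within hypoxia was 0.13 log2 per hr, with 31 of 33 genes above 0 (60.4% of all genes). Slopes passed upward for 20 of the 33, against 2222 of all 14478 genes, and downward for 0, against 2049. The last array was the highest of the 4 for 27 genes (36.1% of all genes). Within tunicamycin the median slope was -0.03, with 10 of 33 above 0 (64.4% of all genes). There 1 slope passed upward and 3 downward, against 1592 and 1646 of all genes. The array before DRB was the highest for 23 genes (23.1% of all genes). In emetine the median was 0.01 and in shRent1 0.06. The medians over all genes were 0.02, 0.03, 0.03 and 0.02 in the same order. Upward, 0 slopes passed in emetine and 3 in shRent1, against 10 and 1589 of all genes. Downward, 0 passed in either, against 47 and 2389 of all genes. These counts within a stress were not repeated with arrays left out.

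Slopes were also set against that of control. In hypoxia 29 of 33 estimates were above 0 (median 0.07), against 54.1% of all genes. However, 0 passed in either direction, where 0.0345% of all genes passed upward and 0% downward. An unadjusted p below 0.05 was found for 5 of the 33 and for 1498 of all 14478 genes. Without the control array at 4.5 hr, 19 of 33 were above 0. In tunicamycin 31 of 33 estimates were below 0 (median -0.08) under the deposited scale, quantile normalization and ribosomal centring alike. On the deposited scale 6852 of all 14478 genes were below 0. Of the 33, 0 passed, against 4.66% of all genes upward and 0.58% downward. An unadjusted p below 0.05 was found for 10 of the 33 and for 2477 of all genes. The nearest to the threshold there were LAMC1 (-0.15 ± 0.04, adjusted p 0.0604) and P4HA1 (-0.20 ± 0.06, adjusted p 0.0792). In shRent1 0 passed, against 0.0345% upward and 0.00691% downward. There 0 of the 33 had an unadjusted p below 0.05, against 955 of all genes.

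In emetine 3 slopes were lower than in control, those of NID1 (-0.21 ± 0.06, adjusted p 0.0244), LUM (-0.21 ± 0.06, adjusted p 0.045) and COL5A1 (-0.14 ± 0.04, adjusted p 0.0316), against 1.58% of all genes, and 0 were higher, against 12.8%. NID1 and COL5A1 rose in control, with slopes of 0.13 and 0.11, and their slopes within emetine, -0.08 and -0.02, did not pass. None of the 3 passed without the control array at 0 hr, the control array at 4.5 hr, or the emetine array at 0 or 4.5 hr, and NID1 alone of the 3 passed without that at 1.5 hr or that at 3 hr.

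**Figure D4:**
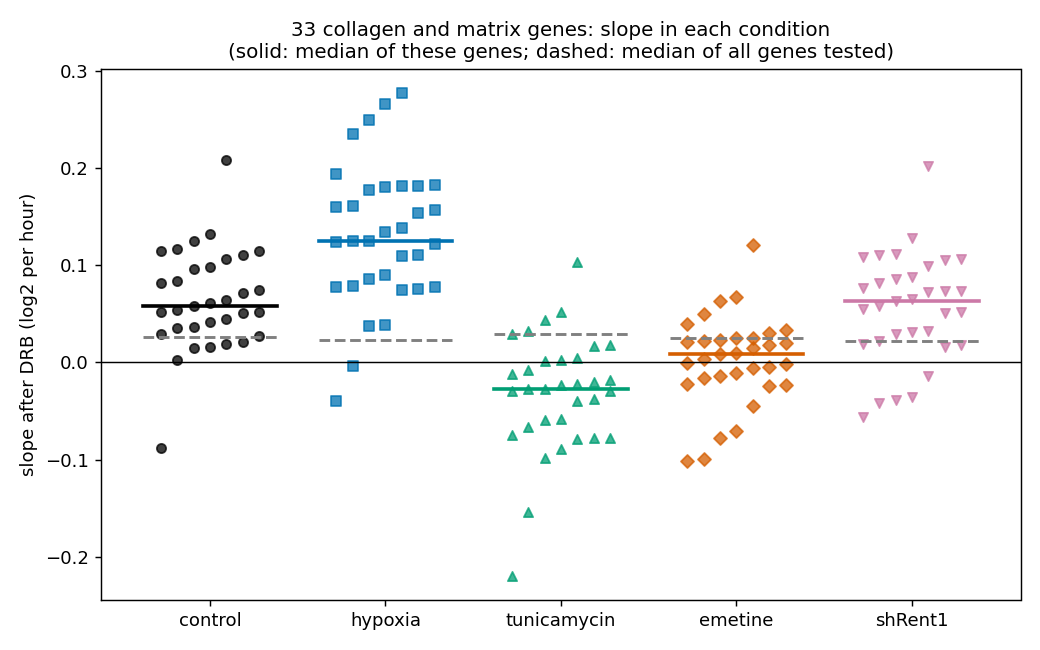
Slope of log2 signal per hour after DRB (vertical axis) for each of the 33 tested genes (points) in the 5 conditions, with the median of these genes (solid line) and of all genes tested (dashed line). The points of hypoxia centre on 0.13 and those of tunicamycin on -0.03, while the dashed lines stay between 0.02 and 0.03.

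Probe sets of 1 gene did not always give the same answer. For the 25 genes with 2 or more probe sets above the filter, the distance between the lowest and the highest mean difference from control had a median of 0.36 log2 in hypoxia, 0.25 in emetine, 0.21 in shRent1 and 0.17 in tunicamycin. It exceeded 1 for 3, 4, 1 and 1 genes, and the probe sets differed in sign for 13, 4, 5 and 4. The conditions with wider distances were those with the higher ACTB 3' minus 5' values given above (2.04, 2.04 and 1.24 against 0.54), and the part of RNA length was not tested.

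LOX in hypoxia is the widest case: 215446_s_at, which represents the gene, was higher by 1.21 on average and 204298_s_at read 9.06, 8.97, 9.13 and 9.45 against 8.20, 8.46, 8.59 and 8.52, but 213640_s_at was lower by -0.68. The second probe set of PLOD2 read 11.46, 11.16, 11.48 and 11.73 in hypoxia against 10.69, 10.61, 10.96 and 10.73 in control, the same direction as the first. THBS1 (thrombospondin 1) gave no call before DRB on 201110_s_at, which represents it, and on the average over times was lower in emetine (-0.41 ± 0.09, adjusted p 0.00148) and higher in shRent1 (0.36 ± 0.09, adjusted p 0.0074). Its probe set 201108_s_at differed by -1.14 in hypoxia, -2.001 in emetine and -0.77 in shRent1 and 235086_at by 0.23 in hypoxia and -0.23 in emetine. The THBS1 probe set 201109_s_at read 11.93, 11.84, 12.11 and 11.87 in control. It was below every control array in hypoxia (10.88, 11.06, 11.16 and 11.04) and in shRent1 (11.76, 11.73, 11.80 and 11.78). The same held in emetine (10.289 to 10.465), where it was lowest, and in tunicamycin (11.453 to 11.629). COL12A1 differed in hypoxia by 0.09 on 225664_at and by -1.20 on 231879_at, and in emetine by 0.28 and -0.78. Its emetine call was made on 225664_at, which represents the gene. Probe set 231766_s_at was also higher in emetine before DRB. It read 10.092, 9.701, 9.684 and 9.706 in emetine against 9.305, 9.402, 9.747 and 9.682 in control. The dimmer 234951_s_at was lower in emetine at every time. For COL4A2, 211966_at differed by -1.18 in hypoxia and 211964_at by -0.27, both lower.

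COL1A1 had its widest distance in tunicamycin, where the ACTB value was 0.54. Its probe set 202311_s_at read 7.25, 6.34, 5.37 and 4.72 in tunicamycin, in order of time, against 7.71, 7.62, 7.84 and 7.32 in control. The representing probe set 1556499_s_at read 12.66, 12.39, 12.42 and 12.21 there. The first fell by more than 2 log2 over the course, and the positions of the probe sets in the transcript were not analysed here.

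**Figure D5:**
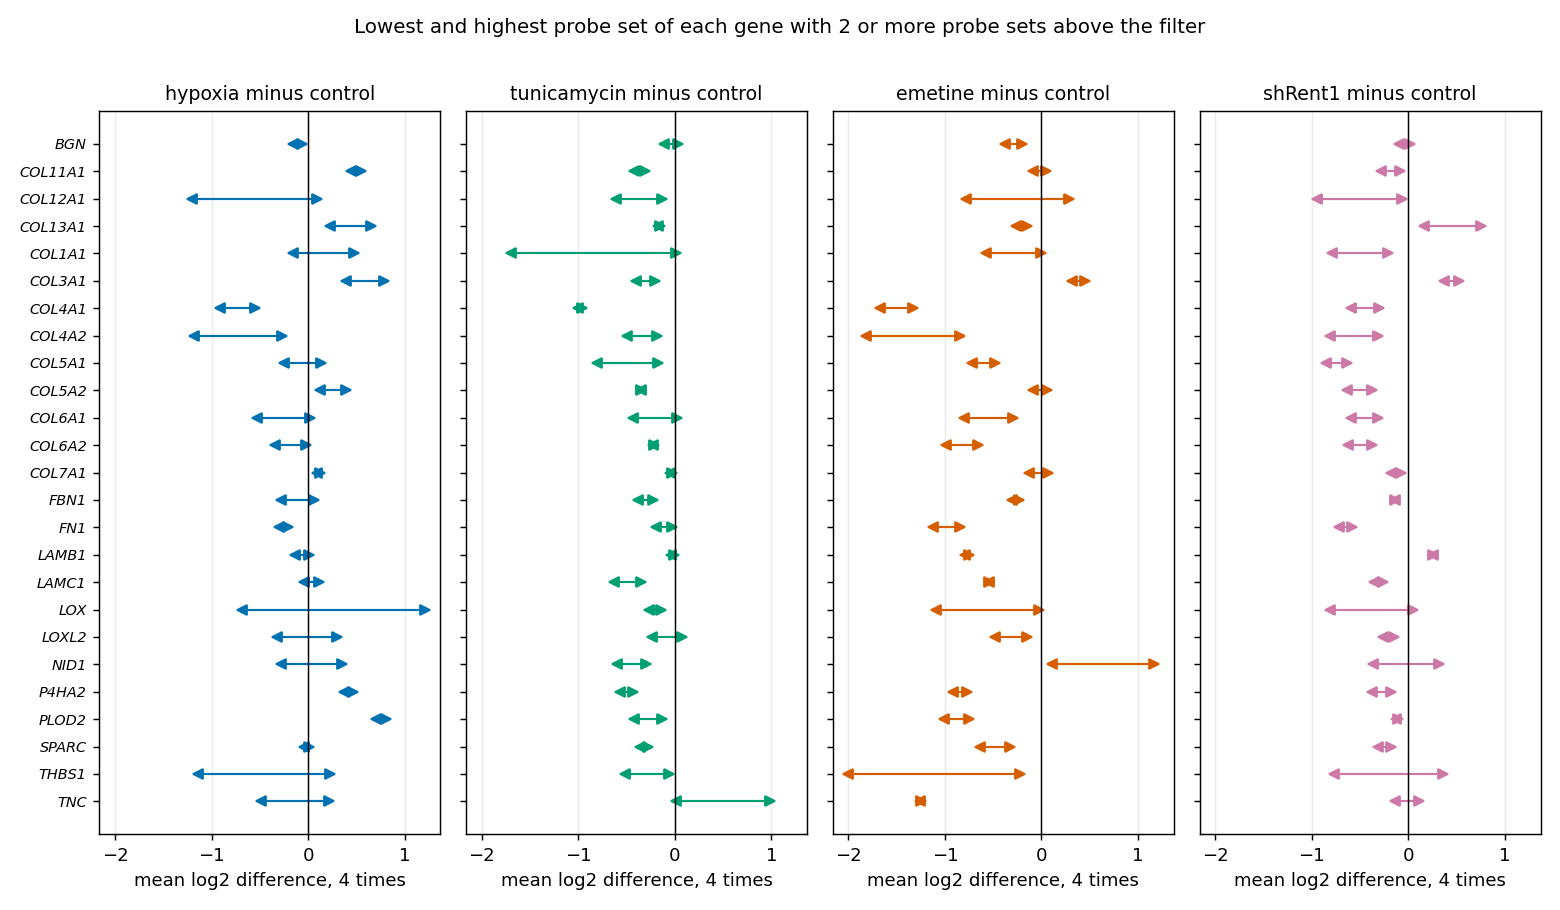
Mean log2 difference from control over the 4 times (horizontal axis) of the lowest and highest probe set (arrowheads joined by a line) of each gene with 2 or more probe sets above the filter, in 4 panels for the 4 comparisons. Long lines that cross 0 stand at LOX, THBS1 and COL12A1 in hypoxia and at COL1A1 in tunicamycin.

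Of the 112 probe sets, 3 fell by at least 1 log2 within the first 1.5 hr of DRB from a signal above the filter in some condition, and none of these represents its gene. The TNC probe set 216005_at had control signals of 6.56, 4.53, 5.37 and 4.46. Its tunicamycin signals of 8.66, 5.35, 5.44 and 5.41 were higher than control at every time and by most before DRB (2.10). In emetine it read 3.74, 3.98, 4.19 and 3.98, under the filter throughout. The main TNC probe set 201645_at fell by 0.47 in the same interval in tunicamycin. The COL12A1 probe set 233109_at read 5.49, 4.26, 4.07 and 4.20 in control and 7.65, 6.09, 3.77 and 4.09 in emetine. The FN1 probe set 1558199_at, mostly under the filter, read 5.44, 4.43, 4.21 and 4.18 in hypoxia.

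Other genes of the pathway were taken from lists drawn up by function. Among 32 tested genes of collagen processing and secretion 1 was higher and 0 lower in hypoxia (SEC24D, a coat protein of secretory vesicles, 1.23 ± 0.23, adjusted p 0.00899). In tunicamycin 1 was higher and 2 lower, in emetine 3 higher and 13 lower, and in shRent1 1 higher and 4 lower. Over all genes the shares higher and lower were 3.21% and 4.44% in hypoxia, 1.97% and 0.926% in tunicamycin, 18.9% and 19.8% in emetine, and 9.68% and 3.99% in shRent1, and the counts of all 3 lists are to be read beside them. LOXL1 and PCOLCE, a lysyl oxidase and the enhancer of procollagen cleavage, were lower in emetine (-0.90 ± 0.10 and -0.59 ± 0.12) and in shRent1 (-0.63 ± 0.10 and -0.77 ± 0.12). CREB3L1, a transcription factor of collagen synthesis, was lower in shRent1 (-1.30 ± 0.17, adjusted p 0.000481).

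Among 45 tested other structural genes of the matrix, hypoxia raised 2 (COL16A1 and MATN2) and lowered 0, tunicamycin gave 0 and 0, emetine 5 and 8, and shRent1 2 and 5. The 2 higher of 45 in hypoxia and the 8 lower of 45 in emetine are shares near those of all genes (3.21% and 19.8%). The lower ones in emetine included TGFBI (-1.26 ± 0.12, adjusted p 8.37e-06) and MFAP2 (-1.02 ± 0.12), and in shRent1 MFAP5 (-1.43 ± 0.10, adjusted p 1.49e-05) and FBLN5 (-1.17 ± 0.14). Of 22 tested matrix receptors, 1 was higher and 1 lower in hypoxia and in tunicamycin, 1 and 8 in emetine and 1 and 3 in shRent1. The hyaluronan receptor CD44 was lower in emetine (-1.002 ± 0.13) and the proteoglycan SDC2 (syndecan 2) in shRent1 by -1.06 ± 0.10. Averaged over the 4 times in tunicamycin, 18 of the 32 processing genes, 18 of the 45 structural genes and 12 of the 22 receptors were lower, with 4, 2 and 1 higher, beside 15 lower and 0 higher among the 33 collagen and matrix genes and 15.5% lower over all genes.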

How the data were processed

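Total RNA was labelled as biotinylated cRNA from the 3' end and hybridized to Affymetrix arrays, per the labels' protocols. The deposited values are 1 linear intensity per probe set and array, made by the authors with RMA, per the submitters' processing notes, with no version given in the sources used here. All 20 columns were matched to samples by title. Values were transformed to log2. Of 54675 probe sets, 41097 had 1 gene symbol in the platform annotation. For each gene the probe set of highest mean was used, and genes above the 40th percentile of mean signal (log2 4.70) were tested. All 20 arrays entered 1 linear model (limma 3.58.1, R 4.3.3, lmFit and eBayes) of the 4 times, the conditions and a straight time course for each stress, leaving 8 residual degrees of freedom. Slopes within a condition came from a line per condition, with 10. P-values were adjusted by Benjamini-Hochberg over all genes tested, at 0.05, and measure only the scatter of single arrays. The fit was tested on simulated data. Scaling between arrays removes any change shared by most transcripts, so a slope is no absolute half-life. Probe sets whose names end in _s_at or _x_at can cross-hybridize. Named genes were every member called before DRB, in the control slope or in a slope against control. The rule gave the 10 largest per comparison and direction with values per array, and of other lists the members with the largest statistics. Members called only in an average over times or in a slope within a stress were not all named. Genes in the text outside this rule were named after their values were seen. The members and lists were chosen with earlier results of these data known. Alternatives were other probe set rules, scalings, filters, variance priors and models, and leaving out each array.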

Additional observations from a re-analysis of the deposited data

Results flagged for a closer look

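For 3 genes the slope after DRB differed between emetine and control in the fit itself: NID1 by -0.2103, LUM by -0.2103 and COL5A1 by -0.1385 log2 per hr, from signals near the filter in the case of LUM. TNC in hypoxia stood out by 1 time point: its difference from control was -0.321 at 4.5 hr and from -0.54 to -0.53 at the other times, among 29 sets of 4 differences examined, where chance sets apart about 1 in 20. The 3 probe sets that follow represent no gene in the comparisons above. For these and the main probe sets beside them, differences before DRB are those of the arrays at 0 hr, not fitted. The NID1 probe set 202008_s_at was higher in emetine by 1.063 before DRB, the same direction as the main probe set. The TNC probe set 216005_at was higher in tunicamycin by 2.102 before DRB, where the main probe set differed by 0.27. The COL12A1 probe set 233109_at was higher in emetine by 2.158 before DRB, where the main probe set differed by 0.53.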

How the results depend on the processing

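No called gene changed direction under any alternative tried. Of the values of single called genes under those alternatives, 503 kept their call and 136 lost it. Counts of called genes moved by more than 1.5 times as follows, and the cause was not tested. The level count in hypoxia, 7, was 2 without probe sets ending in _s_at or _x_at (20 genes are then tested), 3 in a fit of 8 arrays and 17 as an average over times, and 0 to 8 with 1 array left out. That in tunicamycin, 0, was 1 with the median of probe sets, with the 60th percentile filter and with a trended, robust prior, and 15 as an average, with 0 in each fit without 1 array. The emetine count, 16, ran from 6 to 16 with 1 array left out. The shRent1 count, 6, was 3 without those probe sets, 2 in a fit of 8 arrays and 17 as an average, and 0 to 7 with 1 array left out. The slope count in tunicamycin, 0, was 2 with the median of probe sets, 1 without _s_at and _x_at, 1 with the 60th percentile filter and 4 with the trended prior, and 0 to 2 with 1 array left out. The slope count in emetine, 3, was 1 without those probe sets, 1 with no filter, and 0 to 3 with 1 array left out. The control slope count, 8, was 2 without those probe sets, 2 with ribosomal centring, 5 with the 60th percentile filter, and 0 to 8 with 1 array left out. For the averages over times, alternatives added after seeing the data gave 11 to 17 genes in hypoxia, 10 to 17 in tunicamycin, 20 to 24 in emetine and 12 to 17 in shRent1 with 1 array left out. The number of an array within its condition is its time after DRB, so the model, with time as a factor, already holds it as a block. With no replicate block (a line per condition) 5, 0, 16 and 5 levels were called in hypoxia, tunicamycin, emetine and shRent1, and 0, 0, 2 and 0 slopes.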
